A study of Canis lupus familiaris and Felis catus with 4 samples.

Results

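The miR-378 family was examined in the small RNA of urinary exosomes (UExo), the nano-sized vesicles that cells lining the urinary tract release into urine. Its 5 members are both arms of miR-378a (mmu-miR-378a-3p and mmu-miR-378a-5p), mmu-miR-378b, mmu-miR-378c and mmu-miR-378d, taken as every row of the deposited mature miRNA table that carries one of these names, out of 1898 names listed and 255 with a read. They were chosen because miR-378a-3p had lower values in kidney disease in both species of the series, so the levels and changes below describe these libraries and no test was made of them. Each group was 1 pooled library, namely 45 cats with kidney disease (KD cats), 43 cats with normal renal function (NR cats), 47 dogs with kidney disease (KD dogs) and 37 dogs with normal renal function (NR dogs). The cats were client-owned patients grouped mainly by serum creatinine. According to the study's description the KD cats were also older and lighter than the NR cats, so disease, age and body weight cannot be told apart, and no ages were found for the dogs. Because each group is a single pool there is no replicate, and all 95% intervals cover the error of counting reads and leave out the spread among animals.

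miR-378a is processed from a hairpin within an intron of Ppargc1b, the gene of PGC-1 beta, a coactivator of genes of mitochondrial respiration and fat oxidation. In mice its mature forms have been linked to lipid use, brown fat and muscle, and miR-378a-3p is abundant in tissues with many mitochondria, such as heart and skeletal muscle. The dog annotation places MIR378 inside PPARGC1B as well (RefSeq assembly UU_Cfam_GSD_1.0). A miRNA finds its target mRNAs mainly through its seed, bases 2 to 8 from the 5′ end, so members with a common seed share many predicted targets.

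The reads of cats and dogs were placed on mouse sequences, which decides what can be told apart within the family. The mature entries of miR-378b, miR-378c and miR-378d are shown because their similarity limits how far a read can be assigned to one member, with the seed in capitals, as the deposited table lists them for the mouse genome build mm10.
miR-378b: cTGGACTTggagtcagaaga
miR-378c: aCTGGACTtggagtcagaagc
miR-378d: aCTGGCCTtggagtcagaaggt
miR-378c and miR-378a-3p are the only 2 of the 2031 entries with their seed, and they are near-identical as whole sequences. Within the seed, miR-378c and miR-378d differ by A6C, counted from the 5′ end with the base of miR-378c first. miR-378b shares a run of 19 bases with miR-378c but starts 1 base later, so its seed is shifted. On mm10, miR-378a-3p lies on the minus strand of chromosome 18 from 61397838 to 61397858 and miR-378a-5p from 61397875 to 61397896. miR-378b lies on the plus strand of chromosome 11 (88352839 to 88352858), miR-378c on the minus strand of chromosome 14 (46954905 to 46954925) and miR-378d on the minus strand of chromosome 10 (126710355 to 126710376). Each member has 1 genomic copy in the table, and the alignment let a read match several places in the genome, while the rule by which such reads were then counted is not given in the sources used here.

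Nearly all reads of the family belonged to miR-378a-3p. Of 839 reads over the 4 libraries, miR-378a-3p had 775 (92.4%), miR-378c 56 (6.67%) and miR-378d 8 (0.954%), while miR-378a-5p and miR-378b had 0 in every library. miR-378a-3p had 46 reads in KD cats, against 477 in NR cats, and 112 in KD dogs, against 140 in NR dogs. miR-378c had 4 reads in KD cats and 34 in NR cats, and 6 in KD dogs and 12 in NR dogs. The member with a changed seed, miR-378d, had 0 reads in KD cats and 3 in NR cats, and 3 in KD dogs and 2 in NR dogs. By reads, NR cats were highest and KD cats lowest for the 2 larger members, whereas miR-378d stayed at or under 3 reads, the limit used here for a count of 0, and is given no fold.

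**Figure D1:**
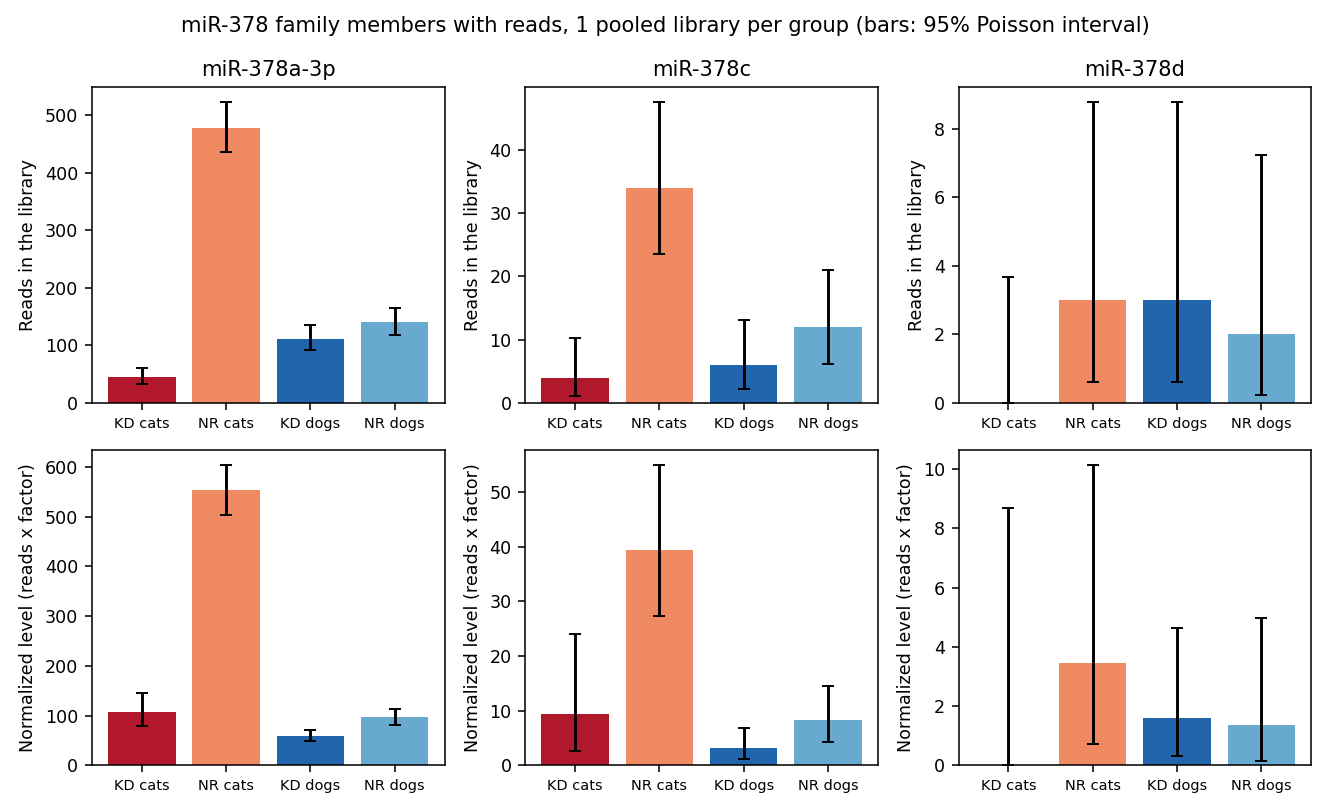
Reads (top row) and normalized levels (reads times 1 factor per library, bottom row) of miR-378a-3p, miR-378c and miR-378d in the 4 pooled libraries, on linear axes that start at 0 and differ between panels; error bars are 95% Poisson intervals. miR-378a-3p stands at 477 reads in NR cats and at 46 in KD cats, whereas KD dogs and NR dogs lie closer together at 112 and 140 reads.

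The libraries differed in depth and make-up. Mature miRNA reads came to 23784 in KD cats, 18704 in NR cats, 63355 in KD dogs and 20878 in NR dogs. The factor from reads to the deposited normalized level was 2.36 in KD cats, 1.16 in NR cats, 0.531 in KD dogs and 0.689 in NR dogs. A few dominant miRNAs (the entries of miR-3107, miR-486 and miR-10) took between 47.9% (NR cats) and 86.1% (KD cats) of the reads, so the choice of scaling weighs on every level, and 8 scalings were computed.

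miR-378a-3p was lower in KD cats than in NR cats, and by less in KD dogs than in NR dogs on the deposited normalization. Its normalized level was 108 in KD cats (95% Poisson interval 79.4 to 145) and 552 in NR cats (504 to 604), which is 5.09-fold lower in KD. In dogs the level was 59.5 in KD (49.0 to 71.6) and 96.5 in NR (81.2 to 114), which is 1.62-fold lower in KD. The log2 ratio of KD over NR was -2.35 in cats (95% exact conditional interval -2.82 to -1.91) and -0.70 in dogs (-1.07 to -0.33). As a share of all mature miRNA reads, miR-378a-3p took 0.193% in KD cats (exact binomial interval 0.142 to 0.258%), against 2.55% in NR cats (2.33 to 2.79%). Its share was 0.177% in KD dogs (0.146 to 0.213%), against 0.671% in NR dogs (0.564 to 0.791%). By reads it ranked 21 in KD cats and 8 in NR cats, between miR-191-5p and miR-27b-3p in the NR pool. In dogs it ranked 26 in KD, tied with miR-142-5p, and 14 in NR. Fewer vesicles from one kind of cell and less of the miRNA per vesicle cannot be told apart in pooled urine. The study also lists miR-378a as down in KD, from the read numbers of these cat pools. It marks both arms as not expressed in kidney in the authors' earlier data, and did not measure miR-378a by PCR. It reports that sequencing and PCR results differed in these cats and in the authors' earlier dog study, which it ascribes to pooled against individual samples.

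The lower value in KD held in direction under every scaling computed, but its size did not. In cats the log2 ratio ran from -3.72 with total count scaling to -1.82 against the total less the dominant miRNAs, and its interval lay below 0 and its value past 2-fold under all 8 scalings. In dogs it ran from -2.16 against the total less the miR-10 entries to -0.32 on read counts, where the interval included 0 (-0.69 to 0.05). The interval lay below 0 under the other 7, and the value was past 2-fold lower under 6 of 8, with -1.52 by TMM factors from edgeR. This spread between scalings is a shift of all miRNAs. The median log2 ratio of all measured miRNAs (mean normalized level of at least 10, with 1 added to each level) was -0.26 over 73 names in cats and 0.98 over 49 names in dogs on the deposited normalization, and it was -1.62 in cats with total count scaling and 1.31 in dogs on read counts. Relative to that median, miR-378a-3p was at -2.09 in cats and -1.68 in dogs. A scaling is 1 factor per library and shifts every log2 ratio alike, so this relative value barely depends on the scaling by construction.

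**Figure D2:**
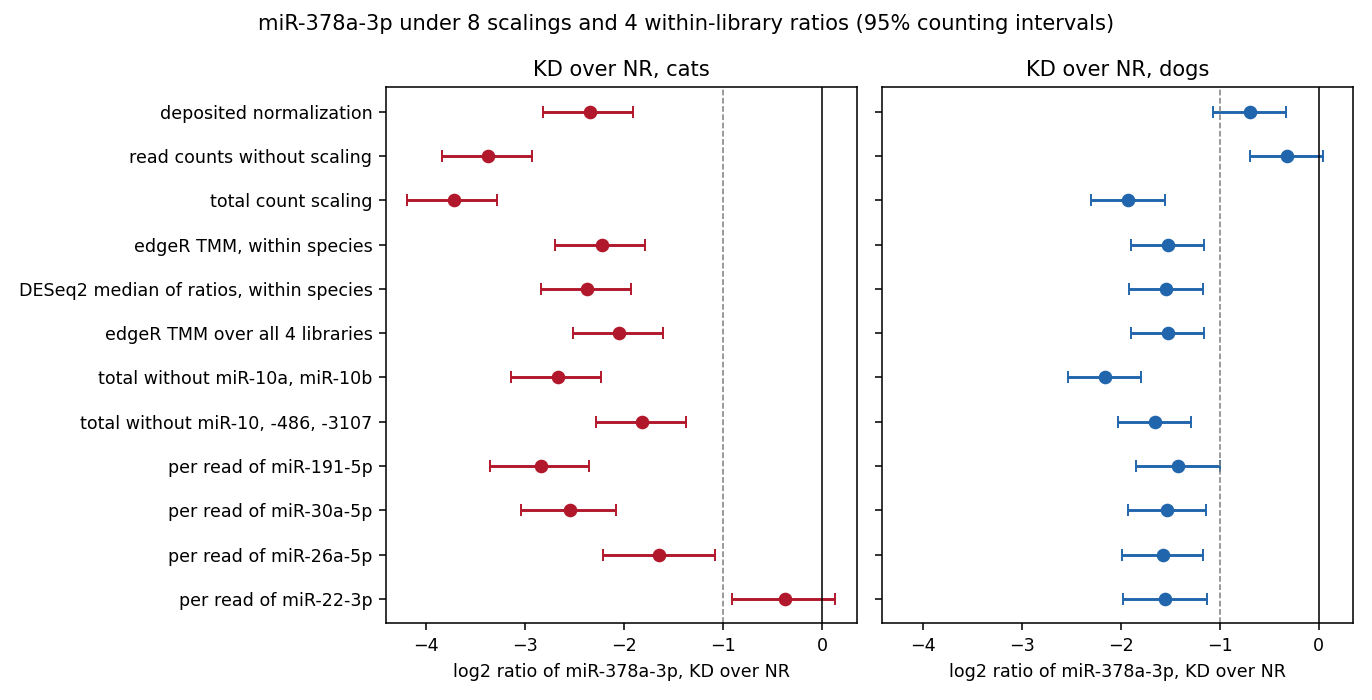
Log2 ratio of miR-378a-3p, KD over NR, in cats (left) and dogs (right) under 8 scalings and as a ratio to 4 miRNAs of the same library; points are ratios, bars 95% counting intervals, the solid line no change and the dashed line 2-fold lower. All points lie below 0, from -3.72 to -0.38 in cats and from -2.16 to -0.32 in dogs, and 1 interval in each species includes 0.

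Whether the lower value was larger in cats than in dogs depended on the scaling. The cat log2 ratio minus the dog log2 ratio was -1.65 on the deposited normalization (counting interval -2.22 to -1.09), -0.71 with edgeR's TMM factors within each species (-1.27 to -0.14) and -0.16 against the total less the dominant miRNAs (-0.73 to 0.40). The last interval includes 0, as do those with edgeR's TMM over all 4 libraries (-1.09 to 0.04) and less the miR-10 entries (-1.07 to 0.05). Those on read counts, with total count scaling and with DESeq2 lay below 0. With 1 pool per group the difference between species was not tested.

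Among all measured miRNAs, miR-378a-3p was near the low end of the change in both species. With 1 added to each normalized level, it was the sixth lowest of 73 in cats (-2.34), and miR-378c was the tenth (-1.95). In dogs it was 1 of 3 of 49 measured miRNAs with a value below 0 on the deposited scale (-0.69), beside miR-143-3p (-0.90) and miR-205-5p (-0.81). Only 2 of the 5 members passed the minimum level in cats, miR-378a-3p and miR-378c, and both were lower by over 2-fold, where 31.5% of all measured miRNAs were. Both were past 2-fold under the other 7 scalings too, where the share of all measured miRNAs was 60% on read counts, 67.6% with total count scaling, 25% and 21% with edgeR's TMM within species and over 4 libraries, 31.5% with DESeq2, 42.4% less the miR-10 entries and 16.1% less the dominant miRNAs. In dogs only miR-378a-3p passed, and it was not past 2-fold on the deposited normalization, where 0% of all measured miRNAs were. It was past 2-fold in dogs with TMM factors within species or DESeq2 (10.2% of all measured miRNAs each), TMM over 4 libraries or less the dominant miRNAs (10% each), total count scaling (14%) and less the miR-10 entries (25.4%), and was not on read counts (1.47%). Since these ratios chose the family, nothing is read from the counts.

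**Figure D3:**
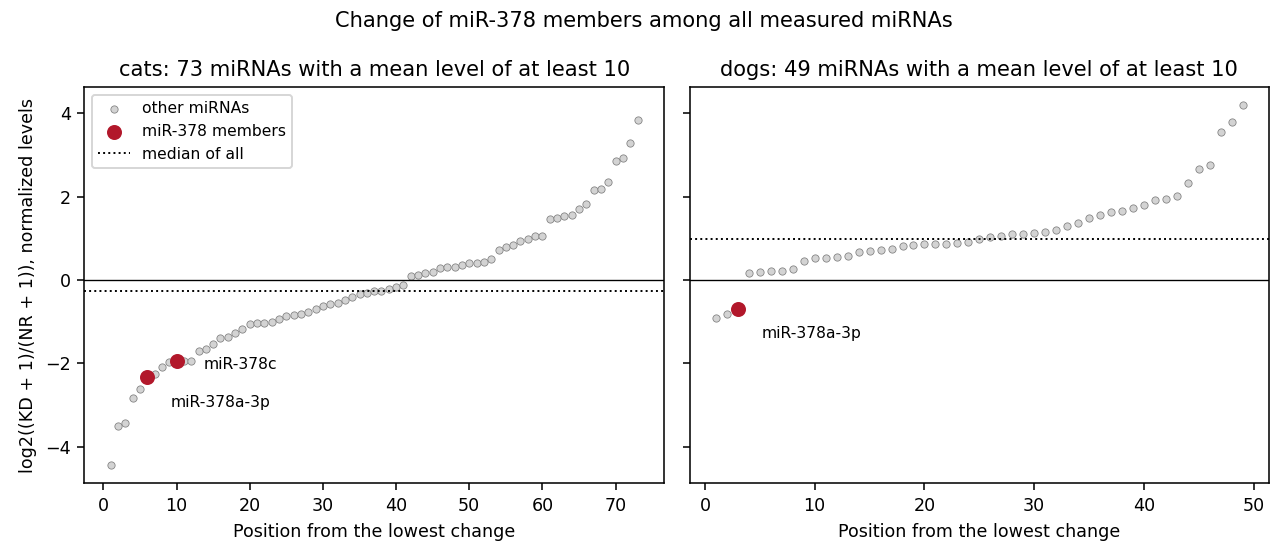
Change of every miRNA with a mean normalized level of at least 10, as log2((KD + 1)/(NR + 1)), in order from the lowest, for 73 miRNAs in cats (left) and 49 in dogs (right); the dotted line is the median of all, at -0.26 in cats and 0.98 in dogs. miR-378a-3p and miR-378c (red) sit at -2.34 and -1.95 in cats, and miR-378a-3p at -0.69 in dogs, where nearly all other points lie above 0.

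miR-378c, the paralog entry with the same seed, followed miR-378a-3p. Its normalized level was 9.43 in KD cats and 39.4 in NR cats, a log2 ratio of -2.06 (-4.02 to -0.57), and 3.19 in KD dogs and 8.27 in NR dogs, a log2 ratio of -1.38 (-3.08 to 0.15). The dog interval includes 0, since it rests on 6 and 12 reads. Of the reads of miR-378a-3p and miR-378c together, miR-378c held 8.0% in KD cats (exact binomial interval 2.22 to 19.2%), 6.65% in NR cats (4.65 to 9.17%), 5.08% in KD dogs (1.89 to 10.7%) and 7.89% in NR dogs (4.15 to 13.4%). These shares need no scaling and their intervals overlap in all 4 libraries. The log2 odds ratio of miR-378c to miR-378a-3p in KD over NR was 0.29 in cats (-1.73 to 1.87) and -0.68 in dogs (-2.42 to 0.90), so no difference between the members was detectable at this depth. As the entries are near-identical, a read can match both, and the count of miR-378c is uncertain for that reason. Summing all 3p members changed little, with log2 ratios of -2.34 in cats (-2.79 to -1.92) and -0.72 in dogs (-1.08 to -0.37).

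The 5p arm of miR-378a was not detected in any library. It had 0 of 46 miR-378a reads in KD cats, which allows a share of up to 6.52%, and 0 of 477 in NR cats (up to 0.629%). In dogs it had 0 of 112 in KD (up to 2.68%) and 0 of 140 in NR (up to 2.14%). An arm without reads was common in these libraries: of 44 hairpins with both arms listed and at least 100 reads over the 4 libraries, 25 had an arm at 0, among them 10 that were read from the 3p arm alone.

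The ratio of miR-378a-3p to another miRNA of the same library needs no scaling factor, and it was lower in KD against each of 4 such miRNAs. Per 100 reads of miR-191-5p, often used as a reference miRNA, there were 13.0 reads of miR-378a-3p in KD cats and 93.0 in NR cats, and 17.0 in KD dogs and 45.6 in NR dogs. For each 100 reads of miR-30a-5p, which is abundant in kidney, there were 7.86 in KD cats and 46.1 in NR cats, and 6.40 in KD dogs and 18.5 in NR dogs. Set against miR-26a-5p, the figures were 45.1 in KD cats and 141 in NR cats, and 11.5 in KD dogs and 34.1 in NR dogs. In dogs the log2 ratios against the 4 miRNAs lay between -1.58 and -1.42, each with an interval below 0. In cats those against miR-191-5p, miR-30a-5p and miR-26a-5p were -2.84 (-3.35 to -2.36), -2.55 (-3.05 to -2.09) and -1.65 (-2.22 to -1.09). By PCR in individual cats, the study found significantly lower raw levels of miR-191, miR-26a and miR-22 in KD, and it did not measure miR-30a. Normalized to urinary RNA, the study reports a significant decrease in KD against NR for miR-22 but none for miR-191 or miR-26a. Stability in disease is therefore not established for any of the 4 denominators.

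miR-22-3p was the exception in cats. Per 100 reads of miR-22-3p, there were 28.9 reads of miR-378a-3p in KD cats and 37.6 in NR cats, a log2 ratio of -0.38 whose interval includes 0 (-0.91 to 0.13). In dogs there were 15.6 in KD and 45.9 in NR, a log2 ratio of -1.56 (-1.98 to -1.13). miR-22-3p had 159 reads in KD cats and 1269 in NR cats, but 717 in KD dogs and 305 in NR dogs. Against this miRNA the cat ratio minus the dog ratio turned to 1.18 (0.53 to 1.82). It was added as a denominator after the data were seen.

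**Figure D4:**
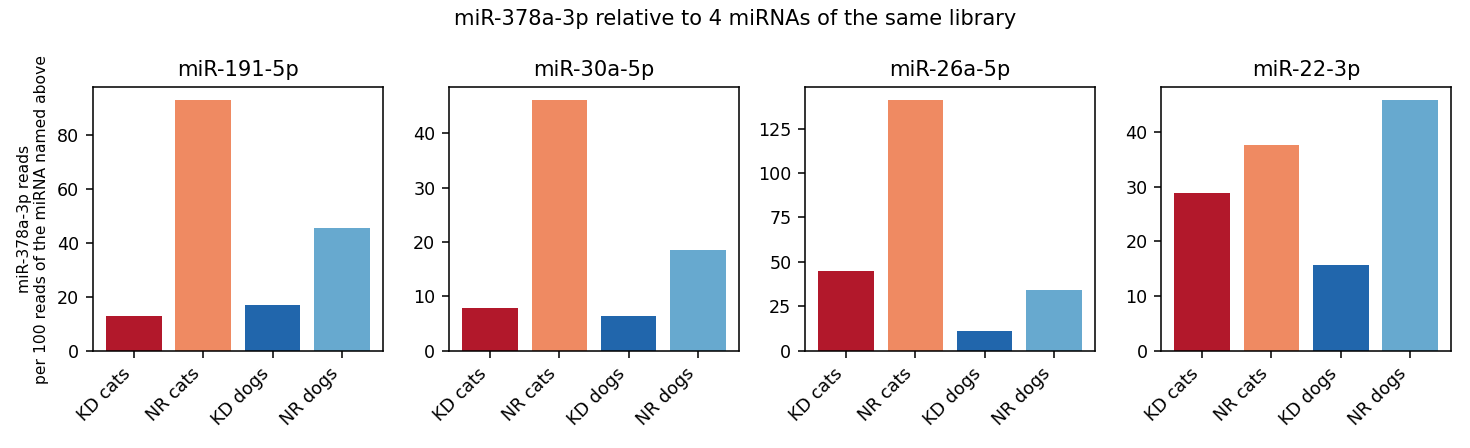
Reads of miR-378a-3p per 100 reads of miR-191-5p, miR-30a-5p, miR-26a-5p and miR-22-3p in the 4 pooled libraries, on linear axes that start at 0 and differ between panels; each bar is 1 library and has no replicate. KD bars are lower than NR bars in every panel, and the cat bars are closest for miR-22-3p, at 28.9 in KD cats and 37.6 in NR cats.

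Between species, miR-378a-3p was higher in cats on the deposited normalization. Among animals with normal renal function the level was 552 in cats and 96.5 in dogs, a log2 ratio of 2.52 (2.24 to 2.80). In kidney disease it was 108 in cats and 59.5 in dogs, a log2 ratio of 0.87 (0.34 to 1.37). These comparisons use the same libraries as those of KD with NR. miR-378c had a log2 ratio of cats over dogs of 2.25 (1.27 to 3.34) in NR and 1.57 (-0.70 to 3.64) in KD. On this scale the median of all measured miRNAs was itself higher in cats, by 1.75 on the log2 scale in NR and 0.23 in KD, and relative to it miR-378a-3p stood at 0.77 in NR and 0.63 in KD. Both measured members were over 2-fold higher in NR cats than in NR dogs, where 67.8% of all measured miRNAs were, and with TMM over 4 libraries 0 of 2 were, where 28.6% of all were. In KD 0 of 1 measured member was, where 37.5% of all were. Over 6 scalings that span the species, the NR ratio stayed above 0 with intervals that excluded 0, but ran down to 0.78, and per read of miR-22-3p it was -0.29 (-0.62 to 0.05). The order of the KD cats and KD dogs did not hold, since the log2 ratio was -1.28 on read counts (-1.81 to -0.78) and only 2 of the 6 scalings had an interval above 0. A cat or dog sequence that differs from the mouse entry would lower the count in that species, which was not tested.

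The 5 miRNAs with the nearest profiles were lower in KD cats under all 8 scalings, as miR-378a-3p was, while their direction in dogs depended on the scaling. They were picked by likeness over these same libraries, so nothing is read from their sharing the lower value in cats. Likeness was the Euclidean distance between log2(normalized level + 1) profiles, each centred on its own mean, over the 4 libraries, for the 29 miRNAs (miR-378a-3p among them) with a mean of at least 50. The nearest were miR-181a-5p (distance 1.13), miR-22-3p (1.16), miR-16-5p (1.29), miR-92a-3p (1.71) and let-7a-5p (1.78), against a median distance of 2.38. On the deposited scale, on which the distances were taken, all 5 were highest in NR cats, and their values in dogs were higher in KD, whereas that of miR-378a-3p was lower. miR-181a-5p had 547 reads in KD dogs and 373 in NR dogs, a log2 ratio of 0.18 whose interval includes 0 (-0.02 to 0.37), and miR-16-5p had 72 in KD dogs and 25 in NR dogs, a log2 ratio of 1.15 (0.48 to 1.87). With the median of all dog miRNAs at 0.98, miR-181a-5p and miR-22-3p (0.86) were below that median. Under 6 of the 8 scalings miR-181a-5p was lower in KD dogs too, each with an interval below 0, at -0.65 with edgeR's TMM and -1.05 with total count scaling. miR-22-3p was lower in KD dogs under 3 of 8, at -0.37 with total count scaling. Being lower in both species was therefore not particular to miR-378a-3p.

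**Figure D5:**
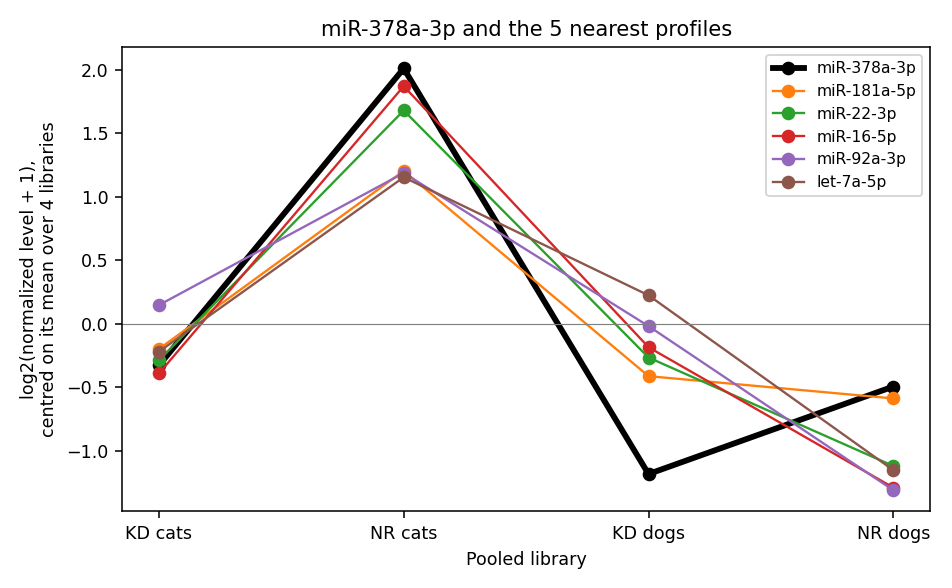
Profiles of miR-378a-3p (black, thick) and the 5 miRNAs nearest to it over the 4 pooled libraries, as log2(normalized level + 1) centred on the mean of each miRNA; each point is 1 library. All 6 lines peak in NR cats, and on this deposited scale miR-378a-3p is the one line that is lower in KD between the dog libraries, at -1.18 in KD dogs and -0.50 in NR dogs.

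Other miRNAs linked to metabolism did not show a common change. Of 14 miRNAs of lipid, cholesterol and insulin regulation, 6 were measured in cats, with 1 lower and 1 higher by over 2-fold and a median log2 change of -0.19, beside 23 lower, 15 higher and a median of -0.26 over all 73. In dogs 4 were measured, with 0 lower and 1 higher by over 2-fold and a median of 0.92, beside 0 lower, 24 higher and a median of 0.98 over all 49. The most abundant was miR-27b-3p, a regulator of fat cell differentiation, with 171 reads in KD cats and 417 in NR cats, and 257 in KD dogs and 96 in NR dogs. miR-143-3p, linked to fat cells and insulin signalling and abundant in smooth muscle, had 88 reads in KD cats and 207 in NR cats, and 13 in KD dogs and 20 in NR dogs. miR-148a-3p, a regulator of the LDL receptor, had 31 in KD cats and 71 in NR cats, and 271 in KD dogs and 105 in NR dogs. miR-33-5p and miR-122-5p, the cholesterol and liver miRNAs, had 0 in all 4 libraries. miR-30c-5p, a regulator of lipoprotein assembly in mice, had 16 in KD cats and 68 in NR cats, and 122 in KD dogs and 51 in NR dogs.

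Muscle and brown fat miRNAs, which mark tissues known for miR-378a-3p, were nearly absent. Of 12 such names, 8 had 0 reads in every library, and all 12 together had 2 reads in KD cats and 2 in NR cats, and 5 in KD dogs and 2 in NR dogs. The muscle markers miR-1a-3p, miR-133b-3p and miR-206-3p were at 0 throughout, and miR-133a-3p had 1 read in NR cats. According to the study, cat urine was centrifuged to remove cells before the vesicle RNA was isolated. The urine had been stored frozen, and the study names cell lysis on freezing and urothelium as possible sources of contamination. Among markers of other cells, the 5 names of white blood cells together had normalized levels of 148 in KD cats and 522 in NR cats, and 65.3 in KD dogs and 4.13 in NR dogs. Nearly all of this was miR-142-5p, at 146 in KD cats and 480 in NR cats, and 59.5 in KD dogs and 4.13 in NR dogs. The 3 tubule markers, led by miR-192-5p, had 63.6 in KD cats and 151 in NR cats, and 425 in KD dogs and 232 in NR dogs. Epithelial markers (7 names, all with reads in every library) had 252 in KD cats and 123 in NR cats, and 316 in KD dogs and 137 in NR dogs. The 4 red blood cell names had 7129 in KD cats and 712 in NR cats, and 3323 in KD dogs and 209 in NR dogs. Almost all of it was miR-486-5p and miR-3107-5p, which the study treats as the same mature miRNA. The same sequence thus enters the sum under both names. miR-451a, also a red blood cell miRNA, went the other way in cats, with 1 read in KD cats and 32 in NR cats, and had 20 in KD dogs and 8 in NR dogs. White blood cell and tubule markers, summed, were lower in KD cats under all 8 scalings. In KD dogs the white blood cell sum was higher under all 8, but it rests on 6 reads in NR dogs, all of miR-142-5p. The log2 ratio of the tubule sum in dogs was 0.87 on the deposited scale, 0.047 with edgeR's TMM and -0.35 with total count scaling. Summed red blood cell names were higher in KD under all 8 scalings in both species. The epithelial sum had an interval above 0 under 6 of 8 in cats and 6 of 8 in dogs. Less the miR-10 entries its interval was below 0 in dogs (-0.49 to -0.02). In dogs miR-141-3p led the sum, with 388 reads in KD and 93 in NR, while miR-205-5p had 14 and 20. In cats miR-203-3p led, with 43 in KD and 31 in NR. On the deposited scale the median log2 change of the measured epithelial names was 0.94 in cats and 0.55 in dogs. Over all measured miRNAs it was -0.26 and 0.98. The part of these markers in the level of miR-378a-3p was not tested.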

How the data were processed

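After trimming, the authors placed reads of both species on mouse mm10 sequences (Bowtie 1.0.0), quantified mouse small RNAs in StrandNGS and deposited read counts and log2 TMM-normalized values per mature entry. CASAVA 1.8.2 also appears in the submitters' processing notes. Each deposited log2 value is the log2 count shifted by 1 constant in each library, so levels were computed as count times that factor (values below 0 are written as 0 in the file). The table held 2031 entries, of which 275 had a read, and 4 emptied lines are not analysed here. Genomic copies of a name were summed.

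Ratios of 2 counts carry exact conditional (Clopper-Pearson) 95% intervals, within-library ratios exact conditional odds ratio intervals, shares exact binomial intervals, and differences of ratios a log-normal approximation. With 1 library per group no test, p-value, SE or SD is given. Since reads are not independent molecules, the intervals hold for counting error alone. For a count of 0, a limit of 3 counts was used. Counts of changed names used log2((KD + 1)/(NR + 1)), a minimum mean of 10 and a fold of 2. Values under other scalings, except plain read counts, were put at the mean level of the deposited ones before that minimum. On read counts the minimum was a mean of 10 reads.

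Members, lists and named miRNAs were chosen with earlier results of these data known. The miRNAs named are the members, the 5 nearest profiles, 4 within-library denominators, neighbours in rank, and the most abundant members of the lists. miR-33-5p, miR-122-5p, miR-205-5p, miR-451a and the muscle markers at 0 were named after their values were seen. Alternatives were 8 scalings in all (edgeR 4.0.16, DESeq2 1.42.0), reference miRNAs, other pseudocounts, minimum levels and folds, and all 3p members summed. Intervals came from scipy 1.17.1 in Python 3.11.15. Their code was checked on simulated Poisson counts with known factors, the model the intervals assume. That check leaves out the spread among animals and the choice of scaling.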

Additional observations from a re-analysis of the deposited data

Results flagged for a closer look

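The change with kidney disease had opposite signs in cats and dogs, beyond the counting interval of each, for 9 of the named miRNAs on the deposited normalization. Over all miRNAs with reads in all 4 libraries it did so for 18 of 102 (17.6%). miR-378a-3p was not among them, as it was lower in both species. The dog log2 ratio minus the cat log2 ratio was 2.83 for miR-22-3p, 3.45 for miR-16-5p, 2.35 for miR-92a-3p and 2.78 for let-7a-5p among the nearest profiles. It was 1.58 for the denominator miR-26a-5p. Of the list members it was 1.31 for miR-27b-3p, 1.94 for miR-30c-5p, 5.56 for the white blood cell miR-142-5p and 1.76 for the tubule miR-192-5p. Each was lower in KD cats and higher in KD dogs, and each difference includes the shift of all miRNAs between the species given above. The signs depended on the scaling (for these miRNAs, the other scalings were added after the data were seen). Opposite signs beyond the intervals held for 9 of the 9 on read counts, where 30.4% of the 102 miRNAs had them. Under DESeq2 or TMM (either way) they held for 3, beside 8.82% of the 102. Less the dominant miRNAs they held for 2, beside 8.82% again. Only miR-142-5p kept them under total count scaling (5.88% of the 102) and less the miR-10 entries (7.84%). The 9 were picked for opposite signs on the deposited scale, so nothing is read from their counts. How many named miRNAs they were picked from is not given here. With 1 pool per group, the difference between species was not tested.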

How the results depend on the processing

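The direction of miR-378a-3p in KD over NR held under all alternatives in both species, while the size, the species order and the cat minus dog difference moved. No paired analysis was possible because each group is 1 library. The cause of these changes was not tested beyond the shift of all miRNAs.

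In cats the log2 ratio left the interval of the deposited-scale value on read counts (-3.37), with total count scaling (-3.72), less the dominant miRNAs (-1.82) and per read of miR-191-5p (-2.84), miR-26a-5p (-1.65) and miR-22-3p (-0.38). In dogs it did so on read counts (-0.32), with total count scaling (-1.92), edgeR's TMM within species or over all 4 libraries (-1.52 each), DESeq2's median of ratios (-1.54), the total less the miR-10 entries (-2.16) or less the dominant miRNAs (-1.66), and per read of miR-191-5p (-1.42), miR-30a-5p (-1.53), miR-26a-5p (-1.58) and miR-22-3p (-1.56).

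The log2 ratio of NR cats over NR dogs was 1.77 on read counts, 1.93 with total count scaling, 0.99 with edgeR's TMM over all libraries, 0.79 less the miR-10 entries, 0.78 less the dominant miRNAs, and 1.03, 1.32, 2.05 and -0.29 per read of miR-191-5p, miR-30a-5p, miR-26a-5p and miR-22-3p, the last being reversed. That of KD cats over KD dogs reversed on read counts (-1.28) and per read of miR-191-5p (-0.39), and was 0.13 with total count scaling, 0.28 less the miR-10 entries, and 0.30 and 1.98 per read of miR-30a-5p and miR-26a-5p.

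The cat minus dog difference was -3.05 on read counts, -0.71 with edgeR's TMM within species, -0.83 with DESeq2, -0.53 with edgeR over all libraries, -0.51 less the miR-10 entries, -0.16 less the dominant miRNAs, -1.02 and -0.070 per read of miR-30a-5p and miR-26a-5p, and reversed to 1.18 per read of miR-22-3p, a denominator chosen after seeing the data.

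The number of members lower by over 2-fold in cats was 1 with a minimum of 50, where miR-378c is left out and 10 of all 32 miRNAs were lower. It was 3 without a minimum, where miR-378d enters on 0 against 3 reads and 108 of all 224 were lower, and 2 otherwise. The shares of all miRNAs in cats under other pseudocounts and folds are not given here. In dogs it was 1 with total count scaling, edgeR's TMM (either way), DESeq2, the total less the dominant miRNAs, no minimum or a fold of 1.5, and 2 less the miR-10 entries, against 0 on the deposited values. Without a minimum the member was miR-378c, at 6 against 12 reads, where 13 of all 196 miRNAs were lower. At a fold of 1.5 miR-143-3p and miR-205-5p passed beside miR-378a-3p. The median of the lipid, cholesterol and insulin list moved by over 0.5 in cats on read counts (-1.22) and total count scaling (-1.57), as the median of all miRNAs did, and for the dogs 0.11 resulted with edgeR's TMM and, reversed, -0.28 with total count scaling. Read depth limits miR-378c, miR-378d, miR-378b and miR-378a-5p, which had at most 34 reads in any library.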
